A study of Mus musculus with 10 samples.

Results

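The 84 genes for the proteins of the cytosolic ribosome were followed in RNA-seq data from mouse hematopoietic stem cells (HSCs) with and without a deletion of Regnase-1. They were found by symbol (Rpl or Rps names with a transcript annotated as protein-coding, pseudogenes left out) among 17662 genes with a protein-coding transcript in the files. They comprised 49 genes of the large subunit, 3 of the stalk and 32 of the small subunit. Regnase-1, encoded by Zc3h12a, is an RNase that degrades mRNAs of cytokines and other regulators. Bone marrow cells of 8-week-old C57BL/6 mice were sorted as Lin- ScaI+ cKit+ CD34- Flt3- cells from Reg1flox/flox mice, the controls, and from Vav1-iCre; Reg1flox/flox mice, here called KO by their labels. Both genotypes carried the floxed alleles, and Vav1-iCre is active throughout blood formation, so that the deletion was not specific to HSCs. The 10 bulk libraries fell into 2 sets by their names, set 1 with 3 libraries of each genotype and set 2 with 2 of each. The labels do not say whether a library was 1 mouse or a pool. The p-values therefore measure the spread between these libraries.

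Each ribosomal protein is built in near-equal numbers into the ribosome, which reads mRNA on its small subunit and links amino acids on its large subunit. The stalk recruits the GTPases that drive each step. In mammals most of these proteins are encoded by a single active gene, which has left many intronless copies in the genome. A few have a second expressed gene, a paralog, that makes a related protein. Their mRNAs begin with a 5′ terminal oligopyrimidine tract, through which mTOR signalling and LARP1 set their translation. HSCs are known for a low and tightly held rate of protein synthesis.

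The targeted gene went against its labels. Zc3h12a stood at 1.15 to 1.36 TPM (a transcript's share of its library's RNA, corrected for length) in the controls and at 1.86 to 2.45 TPM in the libraries labelled KO of set 1. In set 2 it stood at 1.48 and 3.60 TPM in the controls against 9.43 and 8.52 TPM (log2 difference 0.92 ± 0.22 (SE), limma FDR 0.00435, n = 5 against 5). Here and below, a log2 difference is KO label minus control on log2(TPM + 1), and the FDR is adjusted over all tested genes. TPM over the whole gene does not show whether the floxed exons are present. All directions below are those of the labels. The libraries labelled KO also differed from the controls in cell type markers. The summed TPM of 8 B lineage genes was 136 to 1192 in controls and 2.28 to 18.5 in KO libraries. That of 8 neutrophil lineage genes was 2669 to 12517 and 269 to 850.0, respectively. Within it, S100a8 was at 380 to 3396 TPM in controls and at 3.56 to 182 TPM in KO libraries, whereas in set 2 Elane, a primary granule gene, was at 182 and 134 against 193 and 158 TPM. The 7 erythroid genes summed to 789 to 4018 TPM in controls and to 6893 to 8826 TPM in KO libraries. Most of that sum was Car1, at 505 to 2709 and at 6028 to 8301 TPM, and the globin gene Hbb-bt went the other way, from 97.7 to 493 TPM in controls to 34.3 to 86.6 TPM in KO libraries. HSC markers (10 genes) summed to 326 to 478 TPM in controls and to 110 to 498 TPM in KO libraries, and Hoxb5 was listed at 0 in both KO libraries of set 2. T cell genes (4) summed to 20.7 to 36.3 TPM and to 1.40 to 4.42 TPM, megakaryocyte genes (5) to 81.9 to 144 TPM and to 22.0 to 35.2 TPM. Macrophage or dendritic genes (5) summed to 72.8 to 244 TPM and to 242 to 816 TPM. In that sum H2-Ab1 was at 30.5 to 84.7 and at 187 to 609 TPM, while the macrophage genes Csf1r (3.08 to 7.48 and 0.293 to 1.33 TPM) and Adgre1 (0.349 to 2.41 and 0.017 to 0.343 TPM) were lower in KO libraries. Cd34 and Flt3, which the sort excluded, summed to 62.8 to 185 TPM in controls and to 8.85 to 15.5 TPM in KO libraries. The part of these shifts in the results below was not tested. In bulk RNA fewer cells of a type and less RNA per cell cannot be told apart.

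As examples with and without a run of pyrimidines at the start, the bases around the first RefSeq transcription start are printed for members described below, from 10 bases before the start to 20 bases from it (30 bases, sense strand, GRCm38.p6). Capitals mark a C followed by at least 5 bases that are all C or T, the C lying within 10 bases of the start. The run of Rps27l lies wholly before the annotated start, and that of Rps12 begins at the ninth base of the transcript. Rpl27 and Rplp0 hold no such run, nor do the second annotated starts of Rps27l and Rps24, nor Rpl5, Rpl11, Rpl36al and Rpl7l1, which are not printed.
Rps27 (chr3:90213629-90213658, minus strand): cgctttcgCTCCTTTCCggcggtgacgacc
Rps27l (chr9:66946076-66946105, plus strand): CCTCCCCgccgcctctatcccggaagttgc
Rplp2 (chr7:141447641-141447670, plus strand): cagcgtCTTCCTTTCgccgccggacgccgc
Rps24 (chr14:24490668-24490697, plus strand): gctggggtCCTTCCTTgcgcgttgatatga
Rps12 (chr10:23787190-23787219, minus strand): tcatgcggccaccgccggCCTTTTCCCCTg
Rpl12 (chr2:32961702-32961731, plus strand): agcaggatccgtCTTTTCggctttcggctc
Rpl27 (chr11:101442235-101442264, plus strand): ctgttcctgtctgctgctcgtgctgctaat
Rplp0 (chr5:115559457-115559486, plus strand): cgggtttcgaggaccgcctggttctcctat
RefSeq promoters were found for 64 of the 84 members, and 34 of these (53.1%) held such a run, against 23.1% of 12662 genes with a coding transcript and 23.2% of 69 genes for mitochondrial ribosomal proteins. Motifs were sought on either strand in the 300 bases around each start (250 before, 50 from it) and counted per gene. The ETS motif CCGGAAG was found for 40.6% of the 64 members, 37.7% of the mitochondrial ribosome genes and 15.9% of all genes. The YY1 motif AAGATGGCG was in 6.25% of the members and 2.78% of all, and the Sp motif GGGGCGGGG in 9.38% and 21.4%. The log2 difference between genotypes had a median of 0.26 over the 33 tested members with the run near an annotated start and of 0.29 over the 28 without it. Over the 20 tested members with no RefSeq promoter it was 0.16. Annotated starts were not checked in these cells, so the split does not show which mRNAs carry the tract. For Rpl27 the printed window ends at 101442264, before the gene's start in GENCODE at 101442298.

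The ribosomal protein genes made up a far smaller share of the RNA in set 1 than in set 2, for both genotypes. Their summed TPM was 34629, 30642 and 34665 in the controls of set 1 and 43269, 39435 and 42099 in the KO libraries of that set. In set 2 it was 241665 and 212602 in the controls and 232192 and 216353 in the KO libraries. All 3 KO libraries of set 1 thus lay above all 3 controls, whereas in set 2 both KO libraries lay between the controls. As a share of protein-coding TPM, the genes held 7.13% ± 0.443 (SD, n = 3) in controls and 8.57% ± 0.414 (SD, n = 3) in KO libraries of set 1, and 29.0% ± 2.62 (SD, n = 2) and 29.0% ± 0.583 (SD, n = 2) in set 2. The genes of the large subunit and stalk held 54.4% to 55.5% of the sum in every library. Set 1 and set 2 also differed in the share of all TPM in protein-coding transcripts, 46.2% to 49.1% against 73.5% to 81.1%. In the main tests genotypes were therefore compared within a set or with the set as a covariate. The ranking of members by mean TPM below pools both sets. The library labelled KO replicate 2 of set 2 stood apart. It had 105446 TPM in Mir6236 and Gm24245, which have no protein-coding transcript, against 10546 TPM in the other KO library and 16939 and 16526 TPM in the controls of that set. It also had the lowest protein-coding share of the set, 73.5%.

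**Figure D1:**
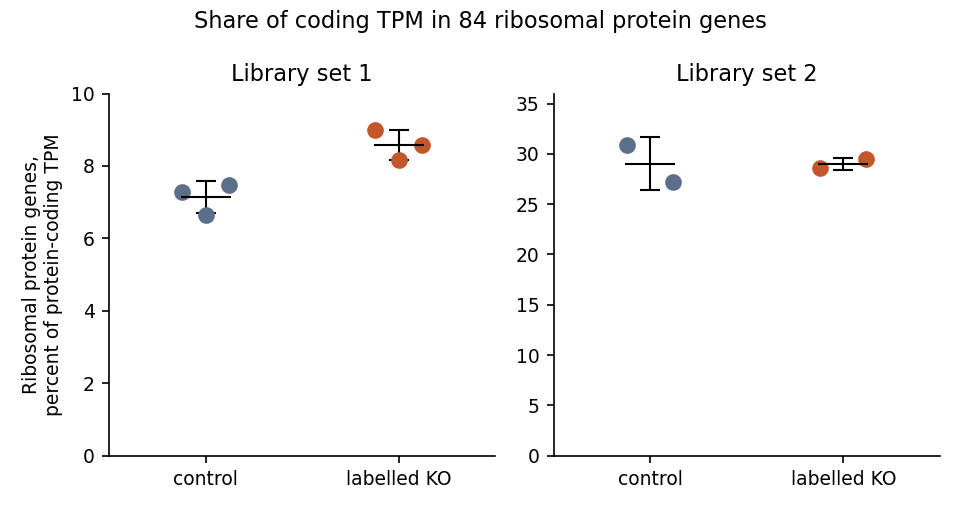
Percent of protein-coding TPM held by the 84 ribosomal protein genes in each library (points), with the mean and SD (bar), for controls and libraries labelled KO in set 1 (left) and set 2 (right); the y axes differ. In set 1 the KO libraries averaged 8.57% and the controls 7.13%, without overlap, and in set 2 both groups averaged 29.0%.

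With both sets in one test, the summed TPM was 1.11-fold higher in the KO libraries, a log2 difference of 0.15 that an exact permutation test within sets did not separate from the spread (two-sided p = 0.1, 120 assignments, smallest possible p 0.0167). In set 1 alone the difference was 1.25-fold with p = 0.1 by the exact permutation test, the smallest that 3 against 3 allows, and in set 2 alone it was 0.989-fold (exact permutation p = 1, smallest possible 0.333). After median-of-ratios scaling, which sets the median gene of each library to a common level, the same difference was 1.33-fold with the smallest possible exact permutation p, 0.0167.

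Gene by gene, the members rose or were not called. Of the 84, 81 passed the filter of at least 1 TPM in at least 5 of 10 libraries (Rpl10l, Rpl39l and Rpl3l did not), and 29 of these were higher in KO libraries by limma with the library set as a covariate (FDR under 0.05 over 10464 genes), against 19.2% of all tested genes. None was lower by limma, also at an unadjusted p under 0.05, where 36 were higher. Of all tested genes 39.1% were lower. The log2 difference had a median of 0.27 over the members and was above 0 in 76 of 81, whereas over all tested genes its median was -0.19. By subunit, 15 of 46 genes of the large subunit, 11 of 32 of the small subunit and 3 of 3 of the stalk were higher. The count rested in part on single libraries. It was 18 without KO replicate 1 or without KO replicate 3 of set 1, 19 without control replicate 2 of set 1, and 45 without control replicate 1 of set 2.

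**Figure D2:**
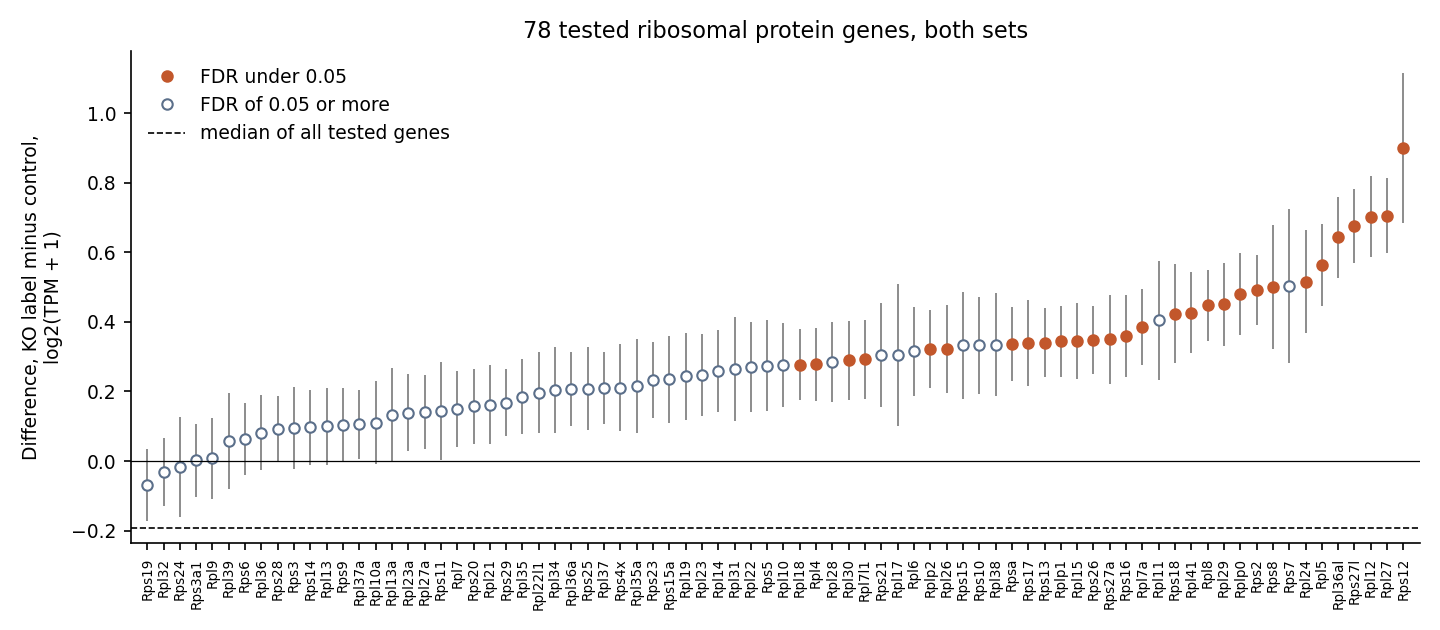
Log2 difference in TPM + 1 between KO libraries and controls (points, with standard errors) for 78 tested ribosomal protein genes in the fit of both sets, ordered by size; filled points passed an FDR of 0.05. The genes plotted run from Rps19 at -0.07 to Rps12 at 0.90, and all lie above the dashed median of all tested genes at -0.19; Rps27 and Rpl3, whose reads are split with copies, and 1 gene not reported here are left out.

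How far the members stood above other genes depended on the scaling. On TPM as deposited, 2004 of all tested genes were higher and 4088 lower. Median-of-ratios scaling moved the median of all genes up by 0.24 and gave 3521 higher and 3163 lower, with 72 members higher (all genes, 33.6%) and none lower (all genes, 30.2%) by limma, also at an unadjusted p under 0.05, where 74 were higher. Quantile normalization, which gives every library the same distribution of values, moved it up by 0.33 and gave 3588 higher and 2417 lower, with 26 members higher (all genes, 34.3%) and 1 lower (all genes, 23.1%). The members' median lay above that of all genes by 0.47 as deposited, by 0.50 after median-of-ratios scaling and by 0.07 after quantile normalization. Among genes other than members with coding transcripts under 1000 bases and a mean of at least 100 TPM, as 63 of the 81 tested members have, 202 of 396 were higher and 62 lower, with a median of 0.32.

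The members were next compared within each library set. In set 1 alone 47 of 81 were higher and 1 lower, against 14.9% and 39.6% of all genes, with a median of 0.42. In set 2 alone, 1 was higher and 1 lower, against 5.47% and 19.2%, with a median of 0.02. The counts were the same when coding TPM was rescaled to an equal total in each library (all genes, 6.94% and 19.5%), with a median of 0.04. On that scale 40 were higher (all genes, 12.7%) and 1 lower (42.2%) in set 1. After median-of-ratios scaling 77 were higher (29%) and none lower in set 1 by limma, also at an unadjusted p under 0.05 (28.7% at the FDR), and 5 were higher (14.9%) and 1 lower (18.4%) in set 2. Over all transcripts 38 were higher (12%) and 1 lower (38.3%) in set 1, and none higher (3.51%; 5 at an unadjusted p under 0.05) and 1 lower (12.3%) in set 2 by limma. With the copies described below added, 46 were higher (14.8%) and 1 lower (39.6%) in set 1, and 1 was higher (5.48%) and none lower, also at an unadjusted p under 0.05 (19.2% at the FDR), in set 2 by limma. Without KO replicate 2 of set 2, 35 members were higher in both sets together (all genes, 17.7%), with a median of 0.32. In set 2 alone the median was then 0.07, and limma called no gene at all (1 member higher and 1 lower at an unadjusted p under 0.05), the lone KO library being taken to vary as the controls do. Every KO library lay above every control for 66 members in set 1 (all genes, 19.8%) and for 22 in set 2 (all genes, 28.3%). Every KO library lay below every control for 2 members in set 1 (all genes, 44%), and for 12 in set 2 (all genes, 39.3%). In both sets at once, every KO library lay above every control for 19 members (all genes, 15.6%). Among them were Rps2, Rps13, Rps26, Rpsa, Rpl8, Rpl29, Rpl41, Rplp0 and Rplp1. The difference in set 2 lay below that in set 1 for 77 of 81 members. Set 2 minus set 1 had a median of -0.34 over the members and of 0.09 over all genes. Tested gene by gene as an interaction, only Rpl3 passed in limma (FDR under 0.05 in 0.191% of all genes), while at an unadjusted p under 0.05 the difference was lower in set 2 for 24 members and higher for 1. Thus for each member but Rpl3 a difference between the sets was not shown.

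**Figure D3:**
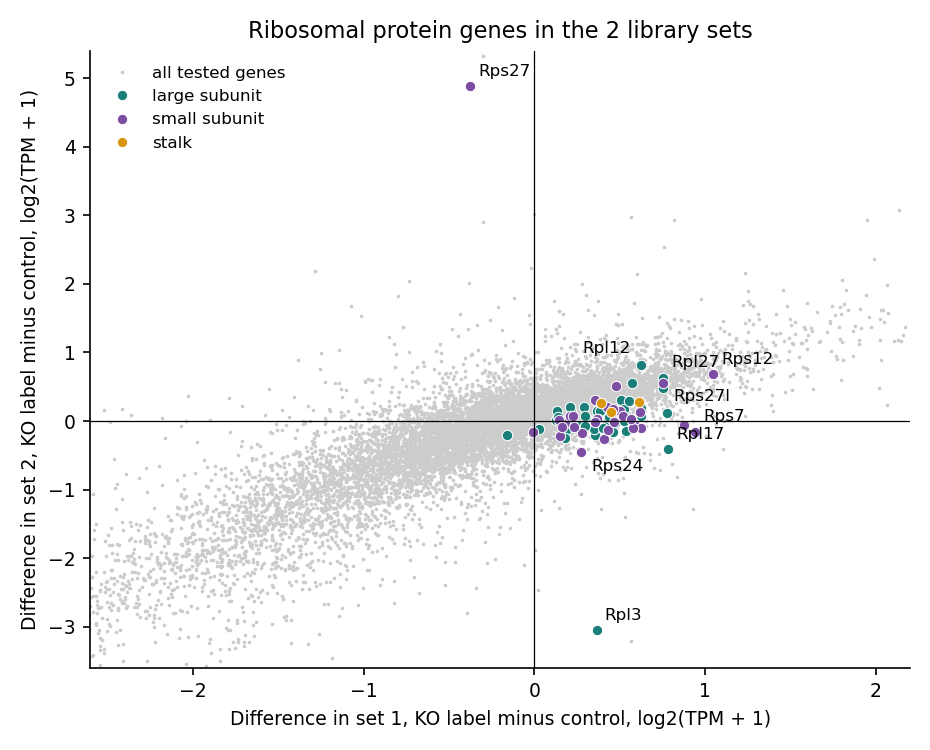
Log2 difference in TPM + 1, KO label minus control, in set 1 (x axis) and in set 2 (y axis) for 81 ribosomal protein genes (coloured by subunit) and all tested genes (grey; 364 lie beyond the axes). Most members sit to the right of 0 on the x axis (median 0.42) and around 0 on the y axis (median 0.02), with Rps27 and Rpl3 far from the rest in set 2.

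The 5 called members with the largest rises were Rps12, Rpl27, Rpl12, Rps27l and Rpl36al. Rpl27, a large subunit protein (chromosome 11, 101442298 to 101445529), was at 430.1, 377 and 419 TPM in the controls and at 696, 721 and 648 TPM in the KO libraries of set 1, and at 279 and 221 against 418 and 356 TPM in set 2. The groups did not overlap in either set, and the rise was 0.70 ± 0.11 (SE) on the log2 scale (limma FDR 0.000222). Rpl27 has 3 named copies, which held 28.4% of the joint TPM in the controls of set 1 and 89.3% in those of set 2. The set 2 values of Rpl27 alone are thus a small part of that sum. The sum in set 2 was 2576 and 2088 TPM in the controls against 3038 and 2813 TPM in the KO libraries. With the copies added the rise over both sets was 0.52 ± 0.11 (SE) (limma FDR 0.00203).

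Rpl12, which lies at the base of the stalk (chromosome 2, 32961559 to 32965345), was the lowest in mean TPM of the tested members. Its coding TPM was 3.53, 3.84 and 5.07 in the controls and 7.35, 6.46 and 6.83 in the KO libraries of set 1, and 28.6 and 23.9 against 49.6 and 44.2 in set 2. Without overlap in either set it rose by 0.70 ± 0.12 (SE) on the log2 scale (limma FDR 0.000393), and it was the 1 member higher in set 2 alone (0.82, limma FDR 0.0362). Only 16.7% of the gene's TPM in the controls of set 1 was in its coding transcripts, and over all its transcripts the difference was 0.31 with an FDR of 0.079 in limma.

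Rps12, a small subunit protein, showed the largest rise of the called members, and shared its reads with copies. Its own coding transcripts held 5.04, 4.36 and 4.999 TPM in the controls and 12.6, 13.4 and 7.72 TPM in the KO libraries of set 1, and 123 and 55.6 against 145 and 122 TPM in set 2, where the groups overlapped. The log2 difference was 0.90 ± 0.22 (SE) (limma FDR 0.00429). The copy Rps12-ps3 held 46.2 to 92.7 TPM in set 1 and 5531 to 6765 TPM in set 2, and with the 16 named copies added the difference was 0.29 with an FDR of 0.12 in limma.

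Rps24, Rplp1, Rps29 and Rpl32 were among the members of highest mean TPM, and of these 4 only Rplp1 was called. Rps24, a small subunit protein, was at 459, 451 and 442 TPM in the controls and at 563, 518 and 554 TPM in the KO libraries of set 1, but at 11382 and 9560.4 TPM in the controls and at 8009 and 7277 TPM in the KO libraries of set 2. It was thus above the controls in set 1 and below them in set 2, without overlap, but limma passed neither difference (0.27, FDR 0.0893, and -0.45, FDR 0.136) nor the difference between them (FDR 0.204). Rpl32, a large subunit protein, differed by -0.03 with an FDR of 0.8 in limma. Rps29 differed by 0.17 with an FDR of 0.154.

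All 3 stalk genes were higher. Rplp0, the scaffold of the stalk, was at 275, 218 and 260.4 TPM in the controls and at 394, 358 and 399.9 TPM in the KO libraries of set 1, and at 539.8 and 488 against 677 and 573 TPM in set 2 (log2 difference 0.48 ± 0.12 (SE), limma FDR 0.00467). Rplp1, one of the paired acidic proteins that bind it, was at 462, 429 and 521 against 623, 578 and 651 TPM in set 1 and at 8333 and 7101 against 9654 and 8909 TPM in set 2 (0.34 ± 0.10 (SE), limma FDR 0.0141). Neither gene overlapped between groups in a set. Rplp2, the other acidic protein, rose by 0.32 ± 0.11 (SE) (limma FDR 0.0277) without overlap in set 1. In set 2 its groups overlapped (3000.3 and 2424 against 3026 and 2869.7 TPM). Leaving out control replicate 1 or 2 or KO replicate 1 or 3 of set 1, or control replicate 2 of set 2, gave an FDR of 0.059 to 0.0684 in limma.

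Rpl5 and Rpl11, which carry the 5S ribosomal RNA and can bind and inhibit Mdm2, the ubiquitin ligase of p53, were higher or not called. Rpl5 was at 11.8, 15.6 and 15.7 TPM in the controls and at 21.8, 19.3 and 24.3 TPM in the KO libraries of set 1, and at 38.1 and 45.9 against 62.6 and 60.8 TPM in set 2. It did not overlap in either set and rose by 0.56 ± 0.12 (SE) (limma FDR 0.0018), but over all its transcripts the difference was 0.27 with an FDR of 0.0583. Rpl11 differed by 0.40 with an FDR of 0.0621 in limma (0.0463 without control replicate 3 of set 1, 0.0355 without control replicate 1 of set 2), and its coding transcripts held only 7.99% of the gene's TPM in the controls of set 1. Among 10 tested p53 target genes, 5 were higher and 3 lower (all genes, 19.2% and 39.1%). Mdm2 itself was among the lower ones (-0.79, limma FDR 0.00661). Aen (0.66) and Bax (0.56), which act in apoptosis, were the largest rises. Cdkn1a (-2.50), the cell cycle inhibitor p21, and Trp53inp1 (-2.25) were the largest falls, all past an FDR of 0.05 in limma.

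Of the 18 members listed for Diamond-Blackfan anaemia, the inherited failure of red cell formation caused by loss of 1 copy of a ribosomal protein gene, 7 were higher (all genes, 19.2%) and none was lower (39.1%) in limma, also at an unadjusted p under 0.05. Their median was 0.33. In set 1 alone 12 were higher (all genes, 14.9%) and 1, Rps27, was lower (39.6%), with a median of 0.47, and in set 2 alone limma called none (all genes, 5.47% and 19.2%; 2 higher at an unadjusted p under 0.05), with a median of 0.07. With copies added, as described below, Rps27 was called lower in both sets together. Rpl27 had the largest called rise, as above. Rps19, the gene most often mutated in the disease, was at 1274, 1090.3 and 1238 against 1281, 1137 and 1169.6 TPM in set 1 and at 2433 and 2060.2 against 2091 and 1904 TPM in set 2. Its groups overlapped in both sets, and the difference was -0.07 ± 0.10 (SE) with an FDR of 0.588 in limma.

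The expressed paralogs were set against their parent genes. Rps27l, the paralog of Rps27 (chromosome 9, 66946086 to 66949516), was at 692, 699 and 729.6 TPM in the controls and at 1226, 1254 and 1100.2 TPM in the KO libraries of set 1, and at 391 and 319.5 against 566 and 481 TPM in set 2. It was higher in every KO library than in every control of its set, by 0.68 ± 0.11 (SE) on the log2 scale (limma FDR 0.00027). Rps27 itself (chromosome 3, 90212522 to 90213651), chosen after its values were seen, could not be read on its own, since in set 2 most of the TPM was given to its intronless copy Rps27rt (chromosome 9, 114982366 to 114982739).

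Rps27 with its 2 named copies was at 1012, 971 and 1026 TPM in the controls and at 809, 737 and 791 TPM in the KO libraries of set 1, and at 7012 and 5877 against 5203 and 4635 TPM in set 2. The sum was lower in every KO library than in every control of its set, and fell by 0.37 on the log2 scale (SE 0.10, limma FDR 0.00636), when all tested genes had a median of -0.19. The ratio of Rps27l to that sum, which multiplying a library by 1 factor cannot change, was 0.684, 0.719 and 0.711 in the controls and 1.52, 1.70 and 1.39 in the KO libraries of set 1. In set 2 it was 0.0558 and 0.0544 in the controls and 0.109 and 0.104 in the KO libraries. It was thus 2.05-fold higher, in 5 of 5 KO libraries above all controls of their set (exact permutation p = 0.0167, the smallest possible; 0.0333 adjusted over the 4 paralogs compared).

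Rpl36al, a paralog of Rpl36a on chromosome 12, was at 289, 228 and 286 against 467, 430.0 and 453 TPM in set 1 and at 1095 and 900.3 against 1446 and 1318 TPM in set 2, without overlap (0.64 ± 0.12 (SE), limma FDR 0.000716). Its ratio to Rpl36a with copies was 1.32-fold higher, again in 5 of 5 KO libraries (exact permutation p = 0.0167, adjusted 0.0333). Rpl7l1 rose by 0.29 ± 0.11 (SE) (limma FDR 0.0442), a call lost on leaving out any library but control replicate 1 of set 1 or 2 and KO replicate 2 of set 2 (FDR 0.0587 to 0.0929). Its ratio to Rpl7 was 1.12-fold higher with an exact permutation p of 0.0667 (adjusted 0.0889). Rpl22l1 differed by 0.20 with an FDR of 0.169 in limma (0.0391 without KO replicate 2 of set 2), and its ratio to Rpl22 by 0.968-fold (exact permutation p = 0.667, also after adjustment). Rpl3l, the heart and muscle form of Rpl3, was at 0.172 to 0.468 TPM in the controls and at 0.0474 to 0.176 TPM in the KO libraries of set 1, and at 1.93 and 2.85 TPM against 0 in set 2. Rpl10l, the testis form of Rpl10, was at 0 to 0.0438 TPM and Rpl39l at 0 to 0.457 TPM, and neither was tested.

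**Figure D4:**
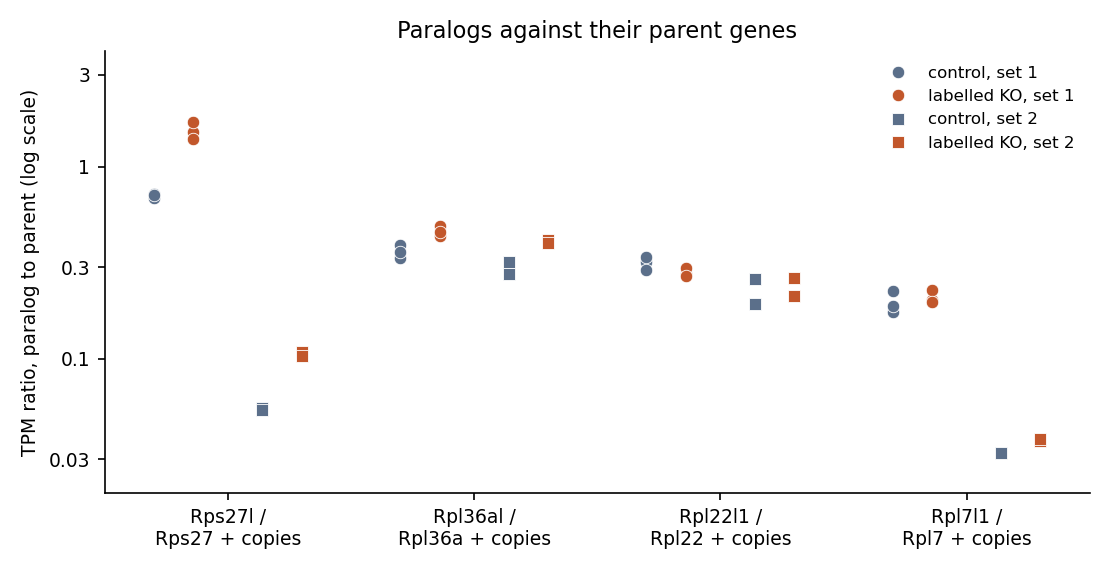
Ratio of the TPM of each paralog to that of its parent gene with the parent's named copies (log scale) in every library, controls and KO libraries in set 1 (circles) and set 2 (squares). For Rps27l and Rpl36al the KO libraries lie above the controls in both sets (2.05-fold and 1.32-fold on average), while for Rpl22l1 the groups overlap in both.

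The division of reads between a gene and its copies touched many members. Of the 84, 57 had at least 1 of 205 copies named after them, and the copies held most of the joint TPM for 12 members in the controls of set 1 and for 10 in those of set 2. Rpl3, a large subunit protein next to the peptidyl transferase centre, was at 359.5, 320.1 and 530.5 TPM in the controls and at 592, 528 and 418 TPM in the KO libraries of set 1, where the groups overlapped. In set 2 it was at 1243 and 1175 TPM in the controls and at 149 and 141 TPM in the KO libraries, a log2 difference of -3.05 (limma FDR 0.00175). The difference between the sets was -3.41 ± 0.32 (SE) (interaction FDR 0.00212). In the same libraries the processed pseudogene Rpl3-ps1 on the X chromosome was at 1712 and 1768 TPM in the controls and at 3064 and 2812 TPM in the KO libraries.

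The sum of Rpl3 and its copies was 2956 and 2946 TPM in the controls and 3214 and 2955 TPM in the KO libraries of set 2, a log2 difference of 0.06 with an FDR of 0.799 in limma. No member then differed between the sets at an FDR of 0.05 in limma, where 26 had an unadjusted p under 0.05, all with a lower difference in set 2. With copies added for all members, 25 were higher (all genes, 19.1%) and 1, Rps27, was lower (39.1%), and 24 of the 29 calls made on the genes alone held. Over all transcripts of each gene, protein-coding or not, 21 members were higher (all genes, 15%) and none lower by limma, also at an unadjusted p under 0.05 (all genes, 37.9% at the FDR), and 18 of the 29 calls held.

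**Figure D5:**
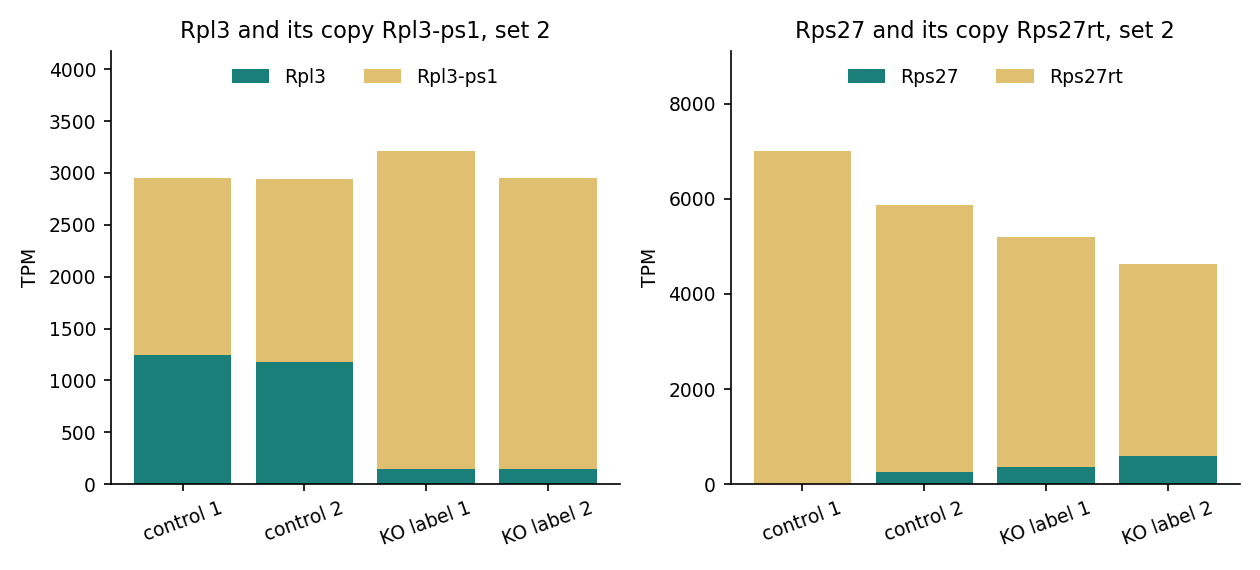
TPM of Rpl3 with its processed pseudogene Rpl3-ps1 (left) and of Rps27 with its copy Rps27rt (right), stacked, in the 4 libraries of set 2. Rpl3 falls from 1243 and 1175 TPM in the controls to 149 and 141 TPM while Rpl3-ps1 rises from 1712 and 1768 to 3064 and 2812 TPM, and nearly all of the Rps27 stack is Rps27rt, which is lower in the KO libraries.

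Ribosomal proteins whose symbols the rule does not take were also followed. Fau, the precursor of the small subunit protein eS30, rose by 0.94 ± 0.18 (SE) (limma FDR 0.000849), and Gnb2l1, the scaffold RACK1 of the small subunit, by 0.66 ± 0.18 (SE) (limma FDR 0.00907). For Gnb2l1 the difference was 1.05 in set 1 alone (limma FDR 0.000721) and 0.07 in set 2 alone (limma FDR 0.772), with an interaction FDR of 0.142. Other mRNAs with an oligopyrimidine tract, mostly translation factors, were higher for 6 of 16 genes and lower for none in limma, also at an unadjusted p under 0.05, with a median of 0.19 (all genes, 19.2% and 39.1%). In set 1 alone 6 were higher (all genes, 14.9%), with a median of 0.31, and in set 2 alone limma called none (all genes, 5.47% and 19.2%; 1 higher at an unadjusted p under 0.05), with a median of 0.05. Eef1g, a subunit of elongation factor 1 (0.82), and Npm1, a nucleolar chaperone (0.61), rose most. Among 14 regulators of these mRNAs, limma called 2 higher and 2 lower (all genes, 19.2% and 39.1%). Myc (0.47) and Larp1 (0.39) rose, and Mycn (-2.80) and Tsc1 (-0.42), an inhibitor of mTOR, fell. The rest, Mtor among them, were not called.

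Lists of genes that build ribosomes, and of the ribosome of mitochondria, are given beside the members; differences between the lists were not tested. Of 37 tested genes of ribosome biogenesis, 31 were higher and none lower by limma, also at an unadjusted p under 0.05 (all genes, 19.2% and 39.1%), with a median of 0.54. In set 1 alone 21 were higher (all genes, 14.9%), with a median of 0.49, and in set 2 alone 10 (all genes, 5.47%), with a median of 0.61. The list was led by Bysl (1.01), which matures the small subunit, and Gnl3 (0.94), a nucleolar GTPase. Of 77 genes of the mitochondrial ribosome, which is made of a separate family of proteins, 58 were higher and none lower, likewise, with a median of 0.44. In set 1 alone 48 were higher, with a median of 0.48, and in set 2 alone 5, with a median of 0.41, against the same shares of all genes. It was led by Mrpl52 (1.06) and Mrps11 (0.997). Over the members the medians were 0.42 in set 1 and 0.02 in set 2, as given above.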

How the data were processed

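RNA-seq of sorted CD34- HSCs gave 10 bulk libraries. The authors mapped reads to GRCm38 with STAR, estimated TPM per transcript with Salmon 0.9.1 on GENCODE M17, and deposited log2(TPM + 1). The deposited log2 values were turned back into TPM and added up per gene over protein-coding transcripts. Since TPM is a share, read depth cannot be had from these values, and counting intervals were not computed. Cell counts, RNA quality and dates were not given in the sources used here; the cDNA kit is given as v3 in the methods and as v4 in the labels.

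Genes with at least 1 TPM in at least 5 libraries (10464) entered a fit by limma 3.58.1 (R 4.3.3) on log2(TPM + 1), a pseudocount that understates changes of low genes, with library set as covariate, and p-values were adjusted over all tested genes by the Benjamini-Hochberg method (FDR threshold 0.05). Single values were tested by exact permutation within sets, two-sided. Fitted differences are KO label minus control. Scripts were tested on simulated data. In the header of one KO file of set 2 the other replicate is named; it holds values of its own and was assigned by its deposited record.

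Members were taken by symbol, and members, lists and tests were chosen with earlier results of these data known. Named were the 5 called members with the largest rises (none fell), the 5 highest and 5 lowest in mean TPM, stalk, 5S and paralog genes, 4 examples of the anaemia list, members with an interaction and, of each other list, the 2 called genes with the largest change each way; Rps27 and the genes without overlap were added. Some named genes are not reported here. Alternatives were other scalings, filters, a pseudocount of 0.1, no covariate, a variance trend, all transcripts, single sets, a replicate block and leaving out each library; the sums with named copies and the paralog ratios were added after the data were seen. Coordinates are from GENCODE M21 on GRCm38, a later release than that of the authors; sequences are from RefSeq.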

Additional observations from a re-analysis of the deposited data

Results flagged for a closer look

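Rpl3 had a genotype difference that was not the same in the 2 library sets. Its log2 difference in set 2 minus that in set 1 was -3.41 ± 0.32 (SE) (limma interaction FDR 0.00212, n = 6 libraries in set 1 and 4 in set 2). With the TPM of its 2 named copies added the same term was -0.17 with an FDR of 0.805 in limma. Groups of 2 and 3 libraries were too small to test for single outlying libraries; KO replicate 2 of set 2, described above, stood apart by its TPM in Mir6236 and Gm24245.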

How the results depend on the processing

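The limits are few libraries, an unknown depth, 2 sets that differ in library make-up, and reads shared with copies. The members called higher numbered 29; they were 0 without the set covariate, 47 in set 1 alone, 1 in set 2 alone and 72 after median-of-ratios scaling. Added after seeing the data were that scaling within a set (77 in set 1, all genes 29%, and 5 in set 2, all genes 14.9%), rescaled coding TPM (40 in set 1, 12.7%, and 1 in set 2, 6.94%), all transcripts (38 in set 1, 12%, and 0 in set 2, 3.51%), named copies added (46 in set 1, 14.8%, and 1 in set 2, 5.48%) and set 2 without its KO replicate 2 (0, with 0 of all genes). The members called lower numbered 0; they were 2 without a filter and 1 after quantile normalization, with named copies added, in set 1 alone, in set 2 alone and in 6 of the 9 added settings within a set. All genes called higher were 724 and lower 2602 without the covariate, 572 and 2007 in set 2 alone, 3588 and 2417 after quantile normalization, and 3521 higher after median-of-ratios scaling. The members with an interaction numbered 1; they were 4 without a filter, 2 with a variance trend and 0 with copies added. The members' median difference of 0.27 was 0.42 in set 1 alone, 0.0232 in set 2 alone and 0.55 after median-of-ratios scaling (0.74 in set 1); in set 2 it was 0.0429 on rescaled coding TPM, 0.0103 over all transcripts, 0.0748 without KO replicate 2 and 0.00413 with copies, and in set 1 with copies 0.41. The summed TPM differed by 0.41 after median-of-ratios scaling (exact permutation p = 0.0167) and by -0.0162 in set 2 alone. Leaving out each library in turn, 18 to 45 members were higher and 0 lower, 1682 to 1980 genes higher and 3770 to 4450 lower, 1 to 3 members had an interaction, the median was 0.19 to 0.32, and the summed difference was 0.11 to 0.20 (exact permutation p 0.0333 to 0.317). The interaction count was 2 without control replicate 2 of set 1 and 3 without control replicate 2 of set 2. The cause of these changes was not tested.

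The deviations of same-numbered libraries from their group means had correlations of 0.04, 0.22 and 0.18 in set 1 and of -0.06 in set 2, where groups of 2 allow only 1 value. In set 1 every library correlated best with its own number, except control replicate 1, which did so with KO replicate 3 (0.11). The labels name no shared animal or batch, and not every pair exceeded 0.1, so the libraries were not treated as paired. With a replicate block, 21 members were higher and 0 lower, and 1859 genes higher and 3950 lower. The summed difference under the block was 0.19 (exact permutation p = 0.188, smallest possible 0.0625).

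Named members changed direction as follows: Rps19 (0.20), Rps24 (0.26) and Rpl32 (0.24) after median-of-ratios scaling; Rpl32 after quantile normalization (0.0183); Rpl3 (0.36), Rpl32 (0.0255), Rps24 (0.27) and Rps27 (-0.38) in set 1 alone; Rpl22l1 (-0.00689) over all transcripts; Rpl3 (0.16) and Rps27 (-0.37) with copies; and, with 1 library of set 2 left out, Rpl32 and Rps24. Over all libraries left out in turn, Rpl32 ran from -0.0653 to 0.0166 and Rps24 from -0.0694 to 0.0882. Of the other values of named members, 349 kept their direction and side of the threshold, 38 lost the call and 10 gained it.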
